A study of Mus musculus with 6 samples.

Results

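Lysosomal hydrolases, cathepsins and lysosomal membrane proteins are described here as 46 genes, chosen by their symbols from a fixed list, in whole kidneys of mice with hyperuricemia-related chronic kidney disease (CKD). Each of the 46 symbols matched 1 row of the 55450 genes in the count table, and all 46 were among the 16592 genes that passed the filter on low counts. The mice were male C57BL/6J, wild type, bought at 7 weeks of age and kept for 1 week before the experiment. The day-0 group (n = 3) is labelled control with 20% PEG as its treatment and was killed at day 0. The day-21 group (n = 3) received adenine at 0.16 g/kg and potassium oxonate at 2.4 g/kg for 21 days. The methods describe daily gavage, whereas the labels call it feeding. Adenine is known to injure the tubules, and potassium oxonate blocks uricase, the enzyme that breaks down urate in mice. The effects of age, gavage, the 20% PEG named for the day-0 group only and the combined agents cannot be told apart in this comparison. No other time point and no other tissue was analysed here.

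Lysosomes are the acidic compartments in which cells take apart proteins, glycans, lipids and nucleic acids brought in by endocytosis, phagocytosis and autophagy. Cathepsins and other hydrolases reach them as precursors, most of them carried by the mannose 6-phosphate route, and work at the low pH kept by a proton pump. The limiting membrane is lined by heavily glycosylated proteins such as LAMP1 and LAMP2. In the kidney, proximal tubule cells hold an extensive lysosomal system for filtered protein, and macrophages are the other cells known for a large lysosomal content.

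Library depth ranged from 10963849 to 14333311 counts per mouse, so that a count of 3, taken as the floor, lay at 0.179 to 0.309 normalized CPM. Levels below are CPM, counts scaled to the size of the library and divided by the scaling factors of the trimmed mean of M-values (TMM), and differences are log2 fold changes of day 21 against day 0 with their standard error (SE) from edgeR's quasi-likelihood test. A gene was called at an adjusted p under 0.05, by the Benjamini-Hochberg method over all 16592 genes, together with a fold over 1.5. The TMM factors were 0.852 to 0.886 on day 0 and 1.119 to 1.172 on day 21, so the groups were scaled apart before any gene was compared. All 12 proximal tubule markers were called lower, their summed level going from between 24345 and 36178 CPM on day 0 to between 4455 and 6510 on day 21. Macrophage markers, none of them among the 46 genes, went from a summed 228 to 269 CPM to 961 to 1105, with 13 of 14 called higher, Mertk called lower and none at 0. Fibroblast and myofibroblast markers were called higher in 8 of 8, from a summed 274 to 400 CPM to 1209 to 2273, with none at 0 and with day-21 replicate 2 the lowest of its group. In bulk kidney, fewer cells of a type and less RNA per cell cannot be told apart, and the part of these markers in the differences below was not tested.

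Of the 46 lysosomal genes, 14 were higher on day 21, 6 were lower and 26 were not called. Over all genes tested, 19.6% were called higher, 15.5% lower and 35.1% in either direction, so the share of higher genes among the 46, 30.4%, lay above that background and the share of lower genes near it. Their median log2 fold change was 0.18, beside 0.03 over all genes. The 8 genes called with a log2 fold change over 1 were the proteases Ctss, Ctsk, Ctsc and Ctsd, the lysozyme Lyz2, the membrane proteins Cd68 and Laptm5, and the progranulin gene Grn. Galc, the galactosylceramidase that removes galactose from myelin-type lipids, was the single gene lower by over 1. The other 6 higher genes lay between 0.60 and 0.84, and the other 5 lower genes between -0.91 and -0.60. In 19 genes every day-21 mouse lay above every day-0 mouse and in 14 every day-21 mouse lay below, while the groups overlapped in 13. Over all genes tested, 30.7% lay wholly above, 26.4% wholly below and 57.1% apart in either direction. Overlap was counted on the TMM scale only.

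The split between higher and lower genes moved with the scaling. With library size alone in place of TMM, 22 of the 46 genes were called higher and 1, Galc, lower, and the calls over all genes moved to 36.1% higher and 8.06% lower, with the median of all genes at 0.42. The distance of the 46 genes' median from that of all genes was 0.15 under TMM, relative log expression, upper quartile scaling and library size alone. At an adjusted p under 0.01 and more than a 2-fold change, 8 genes were higher and 1 lower, beside 11.6% and 7.56% of all genes. At an adjusted p under 0.05 whatever the fold, 18 were higher and 12 lower, beside 23.9% and 21.7%. Under all 4 scalings, 12 genes were called higher and Galc was called lower.

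**Figure D1:**
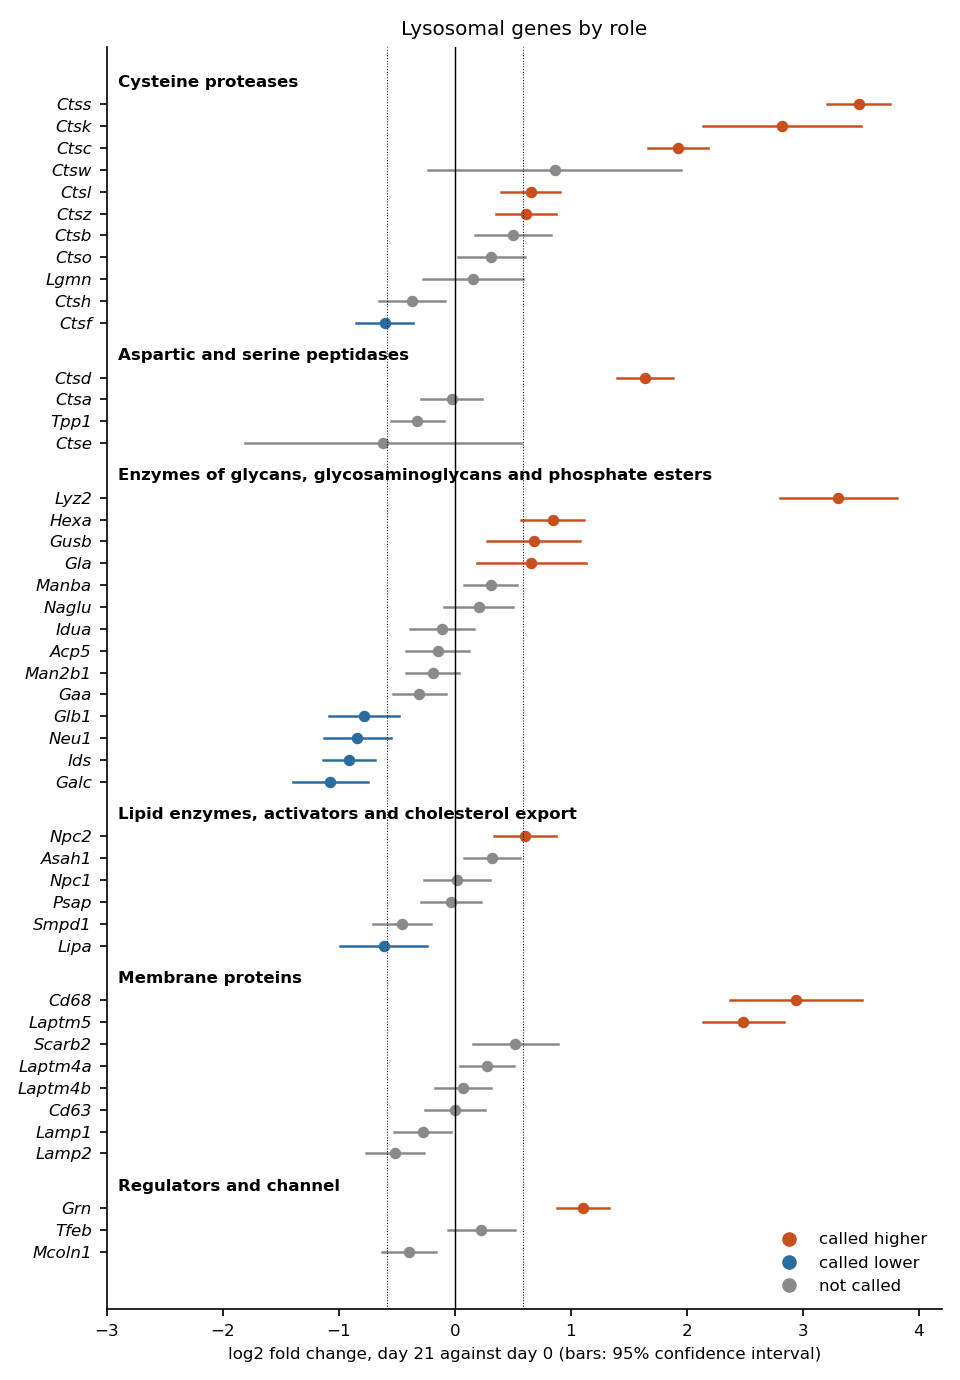
Log2 fold change of each of the 46 genes, day 21 against day 0, grouped by role, with bars for the 95% confidence interval from edgeR. Orange points were called higher (14 genes), blue points lower (6) and grey points not called (26), with dotted lines at a fold of 1.5. Ctss and Lyz2 lie farthest to the right and Galc farthest to the left among called genes.

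Many lysosomal genes carry the E-box CACGTG near their start, the core of the element bound by TFEB and its relatives, and the longer GTCACGTG and TCACGTGA contain it and so overlap it. RefSeq promoters on GRCm38.p6, from 250 bases before to 50 bases after the start, matched 39 of the 46 genes. Asah1, Ctsb, Ctse, Ctsh, Ctsw, Laptm4b and Npc1 had no match. Searched on both strands, CACGTG was found in 11 of 39 genes (28.2%), beside 8.09% of 27025 genes with a promoter of that length. GTCACGTG was found in 8 (20.5%, beside 2.55%) and TCACGTGA in 4 (10.3%, beside 1.12%). By call, CACGTG was in 3 of 14 higher genes, 2 of 6 lower genes and 6 of 19 uncalled genes, so genes with the E-box were found among those higher, lower and not called. GAGGAAGT, a purine-rich sequence of the kind bound by the myeloid factor PU.1, was in Ctsc, Ctss, Gla and Gusb, 10.3% of 39 genes beside 3.69% of all. It was in 4 of the 14 higher genes and in none of the 6 lower or 19 uncalled genes. The calls of Gla and Gusb were lost when single mice were left out. How many of all genes with GAGGAAGT were called was not counted, and the shares over 27025 genes include genes not tested here. A match of letters is a description and not a site of binding.

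Stretches of 150 bases from 5 of these promoters are shown, 4 with the E-box from genes called higher or not called, and that of Ctsc for GAGGAAGT, which it shares with Gla. Lamp1 (chr8:13159011-13159160, plus strand) and Mcoln1 (chr8:3500369-3500518, plus strand) hold 4 and 2 E-boxes and were not called. Ctsd (chr7:142387828-142387977, minus strand) holds 1 in the stretch shown and was called higher. Gla (chrX:134601106-134601255, minus strand) holds 2 E-boxes and 1 GAGGAAGT, and Ctsc (chr7:88277835-88277984, plus strand) holds 1 GAGGAAGT, and both were called higher. Each line reads 5′ to 3′ on the gene's strand, the first 3 ending 1 base before the start and the last 2 beginning 250 bases before it. Capitals mark CACGTG, or GAGGAAGT in its reverse complement ACTTCCTC.
Lamp1: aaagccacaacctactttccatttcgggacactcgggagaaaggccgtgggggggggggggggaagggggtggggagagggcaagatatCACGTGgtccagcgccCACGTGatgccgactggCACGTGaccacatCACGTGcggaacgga
Mcoln1: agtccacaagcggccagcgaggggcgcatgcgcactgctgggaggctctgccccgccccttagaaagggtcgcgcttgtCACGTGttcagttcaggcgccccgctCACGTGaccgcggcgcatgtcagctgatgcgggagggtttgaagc
Ctsd: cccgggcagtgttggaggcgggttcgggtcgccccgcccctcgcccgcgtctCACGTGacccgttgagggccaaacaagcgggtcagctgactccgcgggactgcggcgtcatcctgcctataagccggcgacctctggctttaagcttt
Gla: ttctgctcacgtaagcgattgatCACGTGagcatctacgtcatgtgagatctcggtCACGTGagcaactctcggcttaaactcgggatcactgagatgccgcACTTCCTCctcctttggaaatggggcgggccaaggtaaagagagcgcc
Ctsc: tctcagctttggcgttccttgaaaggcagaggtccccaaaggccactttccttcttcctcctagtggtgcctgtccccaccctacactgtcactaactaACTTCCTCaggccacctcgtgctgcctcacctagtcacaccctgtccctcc

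Cysteine proteases had the highest median of the 6 roles. Of 11, Ctss, Ctsk, Ctsc, Ctsl and Ctsz were called higher and Ctsf lower, with a median log2 fold change of 0.61, which lay 0.58 above the median of all genes. Ctss, cathepsin S, trims the invariant chain from MHC class II molecules in antigen-presenting cells and lies at chr3:95526786-95556403 on the plus strand of GRCm38. Its level was 17.2, 21.1 and 20.3 CPM in the day-0 mice and 213, 223 and 221 CPM in the day-21 mice. The groups lay far apart and the day-21 mice were nearly level with each other. The difference was 3.48 (SE 0.12, adjusted p = 2.0e-07), 11.2-fold between the group means of 19.5 ± 2.03 and 219 ± 5.30 CPM (SD, n = 3 each).

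Ctsk, cathepsin K, is the collagen-cleaving protease best known from osteoclasts and lies 17424 bases from Ctss on chromosome 3. It was found at 2.51, 2.56 and 4.74 CPM on day 0 and at 19.9, 17.5 and 31.5 CPM on day 21. Replicate 3 was the highest mouse in each group, a number not stated to link mice across groups, and the groups did not overlap. The log2 fold change was 2.82 (SE 0.31, adjusted p = 4.7e-05). Of 6 osteoclast markers, which exclude Ctsk and Acp5, 3 passed the filter and 1 of these, Nfatc1, was called higher, with their summed level between 14.7 and 16.8 CPM on day 0 and between 25.7 and 26.8 on day 21 and none at 0 in every mouse. Their part in the difference in Ctsk, like that of the fibroblast markers, was not tested.

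Ctsc encodes dipeptidyl peptidase I, which activates the serine proteases of leukocyte granules. Its level was 42.4, 38.2 and 33.8 CPM on day 0 and 147, 146 and 141 CPM on day 21, with no overlap. The log2 fold change was 1.92 (SE 0.12, adjusted p = 2.0e-06). Ctsl, cathepsin L, is a broad endopeptidase that started from a much higher level, 570 to 600 CPM on day 0, and reached 829 to 996 CPM on day 21. Of its exon bases, 26.8% lie in the opposite-strand model Gm47123, which had 15 to 91 counts per mouse. All day-21 mice were above all day-0 mice, at a log2 fold change of 0.66 (SE 0.11, adjusted p = 9.7e-04). Ctsz, a carboxypeptidase, rose by 0.61 (SE 0.12) from 142 to 177 CPM to 246 to 255 CPM, just over the fold limit, and the call was lost under relative log expression, in DESeq2 and without day-0 replicate 3.

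Ctsf, cathepsin F, was the cysteine protease called lower, at -0.60 (SE 0.11, adjusted p = 0.0014). Its 3 day-0 mice lay at 76.0, 77.0 and 66.3 CPM and its day-21 mice at 44.7, 48.8 and 50.8 CPM, with no overlap. The call was lost under upper quartile scaling, with library size alone, with a filter at a mean of 50 counts, without day-0 replicate 2 and without day-21 replicate 1. Ctsb, cathepsin B, an abundant endopeptidase that shares 12.8% of its exon bases with Fdft1 on the opposite strand, lay at 920, 799 and 628 CPM on day 0 and at 1189, 1078 and 1064 CPM on day 21. The groups were apart, yet the log2 fold change of 0.50 (SE 0.15, adjusted p = 0.018) stayed under the fold limit and passed it under upper quartile scaling, with library size alone and without day-0 replicate 1. Ctsh, an aminopeptidase, had an adjusted p of 0.038 at -0.37, which turned to 0.02 with library size alone. Ctso, a little-studied cathepsin, had a log2 fold change of 0.32 (adjusted p = 0.070).

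Lgmn encodes legumain, the asparagine-specific protease that matures other cathepsins. It varied more within groups than between them, at 1281, 876 and 759 CPM on day 0 and 1280, 948 and 1024 CPM on day 21. The 95% confidence interval of its log2 fold change ran from -0.28 to 0.59, and the sign turned without day-0 replicate 3. Ctsw, a cathepsin of cytotoxic lymphocytes, lay at 1.10, 1.65 and 1.03 CPM on day 0 and 1.77, 3.94 and 1.23 CPM on day 21. Those groups overlapped, and its log2 fold change of 0.86 had an adjusted p of 0.18. T and NK cell markers were called higher in 7 of the 9 tested of 11, from a summed 8.22 to 14.2 CPM to 32.5 to 37.5, with none at 0 in every mouse, and their part in the values of Ctsw was not tested.

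Among the 4 aspartic and serine peptidases, Ctsd alone was called. Cathepsin D is the main aspartic protease of lysosomes and lies at chr7:142375911-142388038 on the minus strand. Its level was 245, 250 and 232 CPM on day 0 and 748, 806 and 713 CPM on day 21. The spread within each group was small beside the gap, and the log2 fold change was 1.64 (SE 0.11, adjusted p = 2.9e-06). A same-strand gene model, Gm49369, covers 34.4% of its exon bases and had 0 counts in every mouse, so the counting of shared reads between them is uncertain. Ctsa, the carboxypeptidase that shields the sialidase and the galactosidase encoded by Neu1 and Glb1, lay between 265 and 327 CPM on day 0 and between 275 and 321 on day 21. Its interval was -0.29 to 0.24, and 17.4% of its exon bases lie in genes on the opposite strand, among them Pltp, which was called higher by 1.41. Tpp1, a tripeptidyl peptidase lost in a childhood neuronal storage disease, had all day-21 mice below all day-0 mice at -0.32 (adjusted p = 0.028), and 0.07 with library size alone. Ctse, cathepsin E, was close to the floor, counted 10, 26 and 32 times in the day-0 mice and 16, 12 and 38 times in the day-21 mice, and no difference was detectable at this depth.

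**Figure D2:**
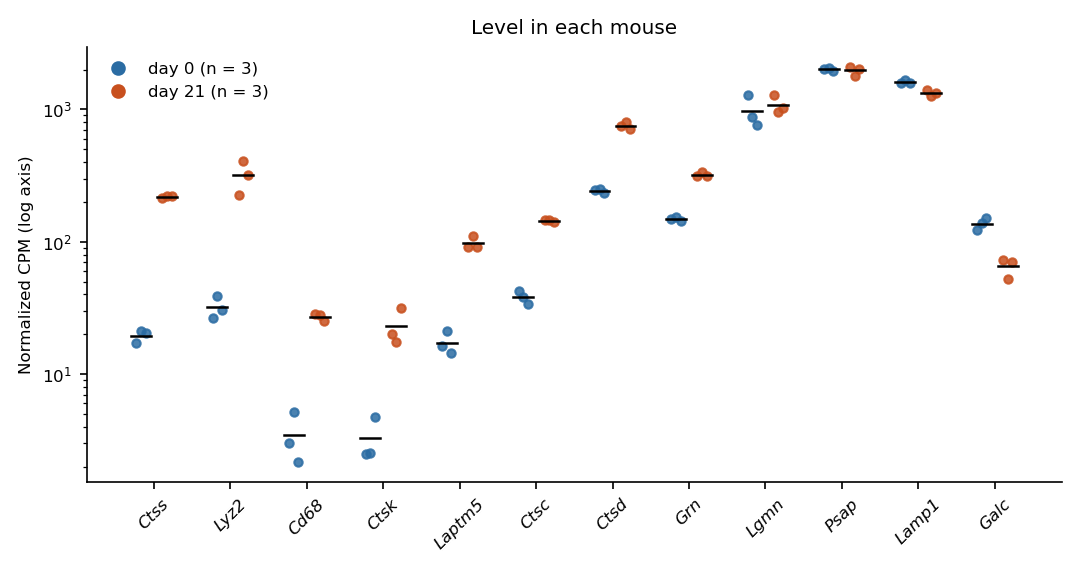
Normalized CPM on a log axis in each of the 6 mice for 12 of the genes, with points for single mice, blue for day 0 and orange for day 21, and bars for group means. The groups are apart for the 8 genes with a log2 increase over 1 and for Galc and Lamp1, and overlap for Lgmn and Psap.

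The 14 enzymes of glycans, glycosaminoglycans and phosphate esters went both ways, with 4 called higher and 4 lower. Their median log2 fold change was -0.13, or 0.26 with library size alone, and their summed level was 1525 ± 39.9 CPM on day 0 and 1495 ± 52.1 on day 21. Lyz2, lysozyme M of macrophages and neutrophils, cleaves bacterial cell walls. It was measured at 26.5, 39.0 and 30.7 CPM on day 0 and at 226, 408 and 320 CPM on day 21. The day-21 mice differed among themselves more than for Ctss, but each lay far above day 0, at 3.31 (SE 0.23, adjusted p = 3.4e-06). Of the words of 50 bases in its exons, 15.4% also occur in Lyz1, itself counted 0, 2 and 5 times in the day-0 mice and 4, 44 and 17 times in the day-21 mice. Of 8 neutrophil markers, 4 were tested, with 1 higher and 2 lower, and the list gave a summed 16.0 to 26.0 CPM on day 0 and 11.3 to 12.4 on day 21, with Mpo and Elane at 0 in every mouse, so that the summed level of these markers was lower where that of Lyz2 was higher, and their part in it was not tested.

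Hexa, the alpha subunit of the hexosaminidase that degrades GM2 ganglioside, rose by 0.84 (SE 0.12, adjusted p = 3.0e-04), from 88.5, 72.7 and 69.7 CPM to 131, 136 and 147 CPM without overlap. Its exons share 12.8% of their bases with Tmem202 on the opposite strand, itself called higher by 0.60, and whether reads were counted by strand was not stated. Gusb, beta-glucuronidase, rose by 0.68 (SE 0.18, adjusted p = 0.011), and its day-0 mice were uneven at 31.9, 44.4 and 57.2 CPM beside 69.7 to 74.2 CPM on day 21. Without day-0 replicate 1 the call was lost. Gla, the alpha-galactosidase deficient in Fabry disease, rose by 0.66 (SE 0.21, adjusted p = 0.027) at a low level, 5.60 to 8.32 CPM against 9.76 to 11.4, and lost its call without any 1 of 5 of the 6 mice, day-0 replicate 1 being the exception. Of these 3 genes, Hexa alone was called in each of 14 alternatives that kept the same limits on p and fold, and none of the 3 passed the 2-fold limit.

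Galc had 122, 138 and 150 CPM on day 0 and 73.0, 52.1 and 70.0 CPM on day 21. All day-21 mice were below all day-0 mice, and the log2 fold change was -1.07 (SE 0.15, adjusted p = 2.2e-04). It was the 1 lower gene called in each of those 14 alternatives and at the 2-fold limit. Ids, the iduronate sulfatase that starts the breakdown of heparan and dermatan sulfate, fell by 0.91 on the log2 scale (SE 0.10, adjusted p = 5.5e-05), from 96.3, 102 and 96.3 CPM to 55.3, 52.2 and 49.3 CPM. Neu1, the lysosomal sialidase, fell by 0.84 (SE 0.13), from 431 to 506 CPM to 225 to 297 CPM. Glb1, the beta-galactosidase, fell by 0.78 (SE 0.14), from 124 to 173 CPM to 85.2 to 93.5 CPM. Neither pair of groups overlapped, and Ids, Neu1 and Glb1 each kept a negative sign but were no longer called with library size alone. Ctsa, whose product binds those of Neu1 and Glb1, was not called, as given above.

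The remaining 6 genes of this class were not called, at log2 fold changes of -0.31 to 0.31. Manba, a beta-mannosidase, had an adjusted p of 0.033 at 0.31. Gaa, the glucosidase of lysosomal glycogen, had an adjusted p of 0.032 at -0.31, turning to 0.08 with library size alone. Naglu and Idua, both of glycosaminoglycan breakdown, lay at 0.21 and -0.11, and Man2b1, an alpha-mannosidase, at -0.19, of which Idua and Man2b1 turned to 0.28 and 0.20 with library size alone. Acp5, the tartrate-resistant acid phosphatase of osteoclasts and some macrophages, was measured at 47.9, 63.5 and 56.2 CPM on day 0 and 51.5, 50.5 and 49.7 CPM on day 21. Its day-21 mice fell within the day-0 range, with an interval of -0.42 to 0.13.

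Of 6 genes for lipid enzymes, their activators and cholesterol export, 1 was called higher and 1 lower. Npc2, the soluble carrier that hands cholesterol to the membrane protein encoded by Npc1, rose by 0.60 (SE 0.12, adjusted p = 0.0024), from 121 to 157 CPM to 198 to 216 CPM. The groups were apart, but the call was lost under relative log expression, in DESeq2 and without day-0 replicate 1, day-0 replicate 3 or day-21 replicate 2. Npc1 itself lay at 32.4, 31.2 and 33 CPM on day 0 and 28.0, 35.8 and 34.1 CPM on day 21, an interval of -0.26 to 0.30. Lipa, the acid lipase of cholesteryl esters and triglycerides, fell by 0.61 (SE 0.17, adjusted p = 0.013), from 385, 234 and 296 CPM to 215, 184 and 199 CPM. Its day-0 mice were uneven, and the call was lost under upper quartile scaling, with library size alone and without day-0 replicate 1 or day-21 replicate 2. Smpd1, acid sphingomyelinase, had groups apart at -0.46 (adjusted p = 0.0076), and Asah1, acid ceramidase, at 0.32 (adjusted p = 0.032), both under the fold limit. Psap, the precursor of the saposins that present sphingolipids to their hydrolases, was at 2031, 2060 and 1961 CPM on day 0 and at 2100, 1793 and 2031 CPM on day 21. The mice of both groups were interleaved, and the interval was -0.29 to 0.23.

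Among 8 membrane proteins, Cd68 and Laptm5 were called higher and none lower. Cd68, macrosialin, is a mucin-like relative of LAMP1 and a standard macrophage label. It was counted 30, 63 and 21 times on day 0 and 403, 467 and 408 times on day 21, which is 3.01, 5.19 and 2.16 CPM against 28.5, 27.9 and 25.0 CPM. No mouse of either group came near the other group, and the log2 fold change was 2.94 (SE 0.26, adjusted p = 1.3e-05). Laptm5, a lysosomal protein of leukocytes that lowers antigen receptor levels, went from 16.2, 21.1 and 14.5 CPM to 91.7, 110 and 90.7 CPM, a log2 fold change of 2.49 (SE 0.16, adjusted p = 2.2e-06). Its relatives Laptm4a and Laptm4b, which are widely expressed, lay at 0.28 (adjusted p = 0.054) and 0.07 (interval -0.17 to 0.32).

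Lamp1 and Lamp2, the major glycoproteins of the limiting membrane, were not called and did not share that pattern. Lamp1 was at 1578, 1660 and 1587 CPM on day 0 and 1395, 1268 and 1322 CPM on day 21, and Lamp2 at 921, 922 and 964 CPM against 719, 597 and 651 CPM. All day-21 mice were below all day-0 mice for both, at -0.28 (adjusted p = 0.063) and -0.51 (adjusted p = 0.0042), and Lamp1 turned to 0.11 with library size alone. Lamp2 passed the fold limit without day-21 replicate 1, and its log2 fold change ran from -0.59 to -0.13 over 14 alternatives. Cd63, a tetraspanin of late endosomes, lay between 677 and 835 CPM on day 0 and between 731 and 789 on day 21, at 0.00 with an interval of -0.26 to 0.26. Scarb2, the receptor that takes glucocerebrosidase to lysosomes, had an adjusted p of 0.025 at 0.52, with 73.9, 61.4 and 83.9 CPM beside 117, 81.7 and 116 CPM, overlapping through day-21 replicate 2. It passed the fold limit without that mouse, without day-0 replicate 3, under upper quartile scaling and with library size alone.

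Grn encodes progranulin, a secreted and lysosomal glycoprotein that is cut into granulins and is needed for normal hydrolase activity. It was found at 149, 155 and 144 CPM on day 0 and at 314, 335 and 314 CPM on day 21. The groups were tight and apart, at 1.11 (SE 0.10, adjusted p = 1.7e-05). Tfeb, the transcription factor that binds the E-box shown above, lay at 23.5 to 27.6 CPM on day 0 and 26.5 to 31.9 on day 21. Its log2 fold change was 0.23 (adjusted p = 0.18), and with library size alone it was called higher at 0.62. Mcoln1, the lysosomal calcium channel mucolipin 1 that acts upstream of TFEB, had all day-21 mice below all day-0 mice, 43.2 to 47.6 CPM beside 56.9 to 63.7. Its log2 fold change of -0.39 (adjusted p = 0.012) was under the fold limit and ran from -0.44 to -0.0028 over 14 alternatives.

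Of the 46 genes, 6 are known mainly from leukocytes, namely Ctss, Ctsw, Cd68, Laptm5, Lyz2 and Acp5. Of these, 4 were called higher and none lower, with a median log2 fold change of 2.72. Their summed level was 112, 151 and 125 CPM on day 0 and 612, 823 and 708 CPM on day 21, a ratio of means of 5.52. On the TMM scale the other 40 genes summed to 11901 ± 556 CPM on day 0 and 12603 ± 622 on day 21, a ratio of 1.06, and overlapped between groups. Sums were not taken with library size alone, where the median log2 fold change of the 40 was 0.44, beside 0.42 over all genes. Among these 40, 10 were called higher and 6 lower, with a median of 0.05, beside 0.03 over all genes. These are 25.0% and 15.0% of the 40, beside 19.6% and 15.5% of all genes, and with library size alone the counts were 18 and 1. The summed macrophage markers given above went up by a ratio of 4.16 and the summed proximal tubule markers down to 0.180 of day 0, and the part of either in these sums was not tested. The median log2 fold changes of these macrophage and proximal tubule lists were 2.98 and -1.99. Single genes weighed on the marker sums, Mertk with a mean of 68.7 of 245 CPM on day 0 and Kap with 15533 of 31377.

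**Figure D3:**
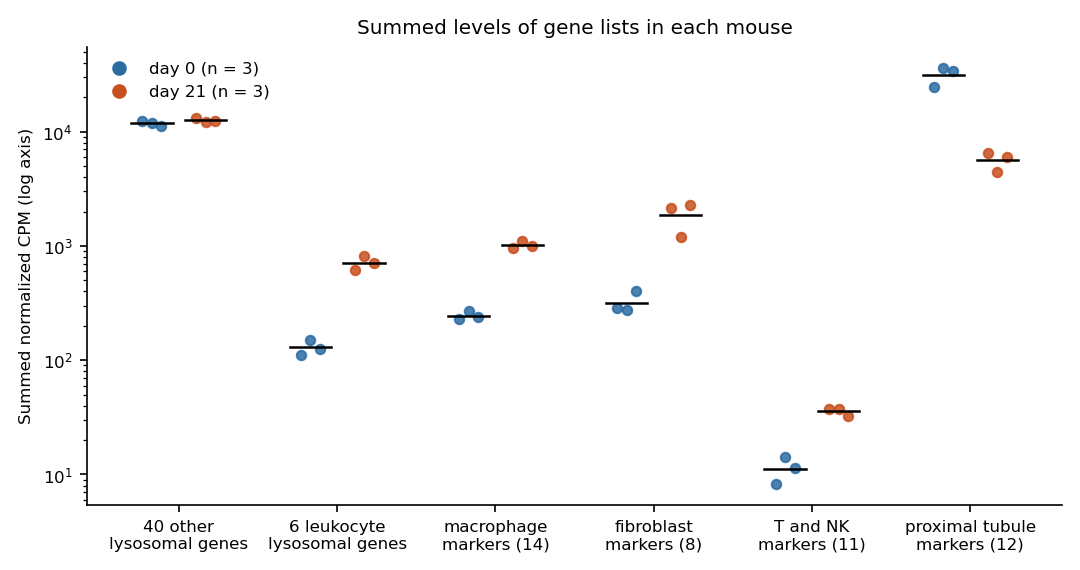
Summed normalized CPM on a log axis of gene lists in each of the 6 mice, with blue points for day 0 and orange points for day 21. On this TMM scale, the sums of the 6 leukocyte-type genes and of the macrophage markers lie higher in all day-21 mice. The proximal tubule sum lies lower, and the sums of the other 40 lysosomal genes overlap on the same scale.

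On the scale of CPM per kilobase of exon, Psap, Lamp1 and Lgmn were the 3 highest of the 46 genes in both groups, at 735, 601 and 418 on day 0 and 720, 497 and 467 on day 21. These lengths join the exons of all annotated transcripts of a gene, and which of these exons were used in these kidneys was not measured. On that scale Ctsd moved from rank 9 (103) to rank 4 (321), Lyz2 from rank 25 (24.4) to rank 5 (242) and Ctss from rank 30 (14.4) to rank 10 (161). Psap made up 20.7% of the summed level of the 46 genes on day 0 and 16.8% on day 21, and Ctsd 2.90% and 7.50%. Cathepsin D and lysozyme thus came to stand among the most abundant of these transcripts, while Ctse and Ctsw stayed the lowest. Agreement within groups was closer on day 21, where the coefficient of variation over 3 mice had a median of 6.05% over the 46 genes, beside 10.4% on day 0.

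**Figure D4:**
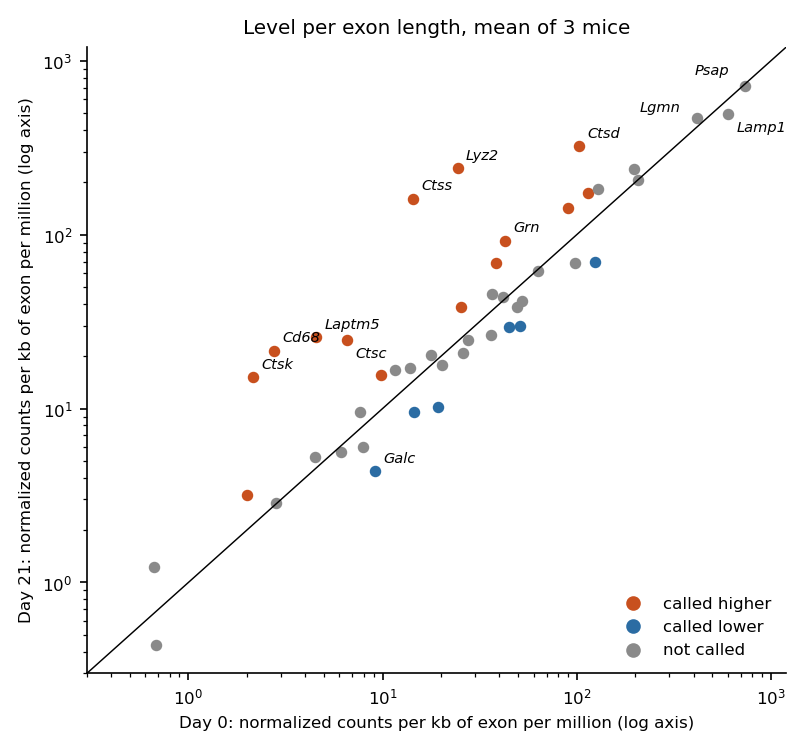
Mean level of each of the 46 genes as CPM per kilobase of exon, day 0 on the horizontal and day 21 on the vertical axis, both log axes, with the diagonal marking equal levels. Psap, Lamp1 and Lgmn lie at the top near the diagonal, while Ctss, Lyz2, Cd68 and Ctsk lie far above it.

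Other genes of the lysosome were compared in the same fit. The counts below stand beside 19.6% called higher and 15.5% lower over all genes tested, or 36.1% and 8.06% with library size alone. Of 36 further genes, mainly hydrolases and their activators but with others such as Gpnmb, 5 were called higher and 8 lower. Their median was -0.04, or 0.05 under upper quartile scaling. With library size alone, 12 were higher and 5 lower and the median was 0.35. Gpnmb, a glycoprotein of macrophages and melanosomes, went from 0, 6 and 3 counts to 62, 158 and 76, and Plbd1, a phospholipase B-like protein, rose by 2.12 (SE 0.12). Arsb and Galns, the sulfatases deficient in mucopolysaccharidoses VI and IVA, fell by 1.19 (SE 0.17) and 1.15 (SE 0.16) on the log2 scale. Of 25 transporters and channels tested, 4 were higher and 3 lower, with a median of -0.21, and with library size alone 6 were higher and 0 lower with a median of 0.18. The lower count was 5 under relative log expression and 6 without day-21 replicate 1. On the TMM scale, the only scale on which overlap was counted, 6 of the 25 genes lay wholly above day 0 and 13 wholly below. Over all genes tested these shares were 30.7% and 26.4%. The metal transporter gene Slc11a1 and the peptide transporter gene Slc15a3, both known from phagocytes, rose by 2.38 (SE 0.24) and 2.10 (SE 0.22). The amino acid transporter gene Slc36a1 and the nucleoside transporter gene Slc29a3 fell by 0.74 (SE 0.15) and 0.67 (SE 0.12) on the log2 scale.

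Of 24 subunits of the proton pump tested, 1 was called higher and 5 lower, with a median of -0.37. The counts were 1 and 7 under relative log expression, and 2 and 1 with library size alone, where the median was 0.01. That median lay 0.41 below the median of all genes under each of the 4 scalings. Of the 24, 1 lay wholly above day 0 and 15 wholly below on the TMM scale, beside 30.7% and 26.4% of all genes tested. This was not counted under the other scalings. The list was not limited to subunits of the lysosomal pump, and Atp6v1b1 in it is also a marker of the collecting duct. The lysosomal part of these values was not measured. Tcirg1, the a3 subunit of osteoclasts and macrophages, rose by 1.11 (SE 0.14), whereas Atp6v1c2 and Atp6v1a fell by 1.34 (SE 0.24) and 0.90 (SE 0.11). Among 22 genes of mannose 6-phosphate tagging and sorting, 1 was higher and 2 lower, or 4 and 0 with library size alone, and 3 were higher without day-0 replicate 2. The genes called under TMM were Nagpa, the uncovering enzyme, at 0.75 (SE 0.13), and Igf2r, the large mannose 6-phosphate receptor, and Ap1g1, an adaptor subunit, at -0.82 (SE 0.11) and -0.78 (SE 0.11). Of 17 genes for TFEB's relatives and their control by Rag GTPases and folliculin, Mitf was called higher (0.63, SE 0.15) and 3 were called lower, Mtor the lowest at -1.54 (SE 0.14) and Fnip2, a folliculin partner, at -1.40 (SE 0.15). Without day-0 replicate 1 none of the 17 was called higher, and with library size alone 4 were higher and 2 lower. Of the 16 cystatins and stefins listed, 3 passed the filter, and Cstb and Cst3, inhibitors of cysteine cathepsins, rose by 1.28 (SE 0.10) and 0.64 (SE 0.12), of which 1 was called without day-0 replicate 3 or without day-21 replicate 2. So 5 of the 11 cysteine proteases were called higher, 1, Ctsf, lower and 5 neither. Of the 3 genes tested from the cystatin and stefin list, Cstb and Cst3 were called higher and Fetub was not called. Over all genes tested, 19.6% were called higher and 15.5% lower.

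**Figure D5:**
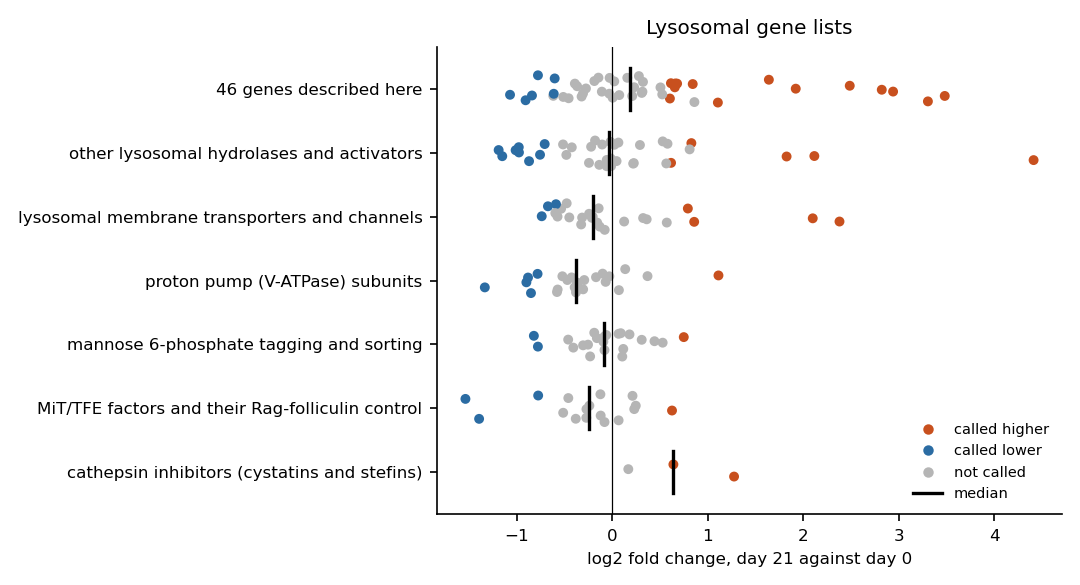
Log2 fold change, day 21 against day 0, of each tested gene in the 46 genes and in 6 other lysosomal lists, with a black bar for the median of each list. Orange points were called higher, blue points lower and grey points not called, and the medians run from -0.37 for the proton pump to 0.64 for the 3 cystatins tested.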

How the data were processed

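Total RNA of whole kidneys was taken up in TRIzol, made into TruSeq libraries and read as pairs of 150 bases. The authors deposited whole-number read counts per gene for 6 mice, without normalization, and the submitters' processing notes name TopHat and mm10. The counting program, its annotation and its use of strand are not given in the sources used here. All 55450 identifiers match GENCODE M21 (GRCm38), and 28536 genes had 0 counts in every mouse. No sample column was left unmapped.

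Counts were filtered with filterByExpr, scaled by TMM and tested in edgeR 4.0.16 (R 4.3.3) by the quasi-likelihood test of day 21 against day 0, over 16592 genes with Benjamini-Hochberg adjustment. Calls needed more than a 1.5-fold change and an adjusted p under 0.05, the limits of the study's methods. The common biological coefficient of variation was 16.2%. Depth limits the precision to the floor of 3 counts per library, which covers counting error only. On simulated counts with 200 genes changed 3-fold among 16592, edgeR called 194 and 11 unchanged genes, limma-voom 3.58.1 called 192 and 10, and DESeq2 1.42.0 called 183 and 9. Folds near the 1.5-fold limit, and a share of changed genes as large as the 35.1% called here, were not tested in this way. DESeq2, limma-voom, 3 other scalings, other filters and thresholds, a replicate block and the omission of each mouse were the alternatives.

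All 46 genes are described, in order of role. In the other lysosomal lists, the genes named are the called genes with the largest changes in each direction, up to 2 each. The members and lists were chosen with earlier results of these data known. With 3 mice against 3, an exact permutation test of a single value cannot go below p = 0.1, so none was used. Proteomic data and protein sequences were not analysed here.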

Additional observations from a re-analysis of the deposited data

How the results depend on the processing

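The 14 higher and 6 lower genes became 22 and 1 with library size alone, 8 and 1 at more than a 2-fold change with an adjusted p under 0.01, and 18 and 12 at an adjusted p under 0.05 with any fold. Leaving out each mouse in turn gave 12 to 13 higher and 5 to 6 lower genes. In each of 14 alternatives that kept the limits on p and fold, 10 of the higher genes and Galc stayed called, while 9 called genes lost a call and 9 uncalled genes gained one in at least 1 of them, Ctsz and Npc2 being lost under relative log expression and DESeq2. At any fold, 10 uncalled genes passed the test. The replicate numbers do not state shared animals and were not used to pair the mice. Deviations of same-numbered mice correlated at -0.019, 0.165 and 0.0896, which with 3 mice per group cannot decide whether mice were paired. With the replicate as a block 14 genes were higher and 6 lower, with no call changed.

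Signs turned in 13 genes, none of them called. With library size alone these were Acp5 (0.25), Ctsa (0.36), Ctsh (0.024), Gaa (0.085), Idua (0.28), Lamp1 (0.11), Man2b1 (0.20), Psap (0.36) and Tpp1 (0.066). Upper quartile scaling gave 0.062 for Ctsa and 0.055 for Psap, and a filter at a mean of 50 counts gave 0.0010 for Ctsa. Relative log expression and DESeq2 each gave -0.030 for Cd63 and -0.011 for Npc1. Leaving out each mouse gave -0.085 to 0.084 for Cd63, -0.12 to 0.028 for Ctsa, -0.0069 to 0.14 for Laptm4b, -0.0026 to 0.39 for Lgmn, -0.051 to 0.12 for Npc1 and -0.077 to 0.034 for Psap. The cause was not tested. Ctse and Ctsw had only 10 to 66 counts per mouse. Gla, at 56 to 191 counts per mouse, lay near the fold limit, with log2 fold changes from 0.56 to 1.05 over the 14 alternatives.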
